A study of Xenopus laevis with 6 samples.

Results

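Nuclear receptors and their coregulators were followed in primordial germ cells (PGCs) and endoderm cells of gastrula- to neurula-stage Xenopus laevis. The set is every gene model whose symbol carries a nuclear receptor name (nr followed by a subfamily code, esrr, esr, rar, rxr, thr, ppar, hnf4, ror or vdr) or a coregulator name (ncoa, ncor or nrip1). It held 55 gene models of 31 symbols, out of 10364 gene models of 6808 symbols in the table named v9.1. Of these, 43 gene models of 25 symbols were receptors and 12 gene models of 6 symbols were coregulators. The coactivator gene ppargc1a entered through the start of its symbol and was placed with the coregulators. The table lists a gene model only where its counts over the 6 libraries came to at least 150. Other receptors are left out of these counts, and a few, such as ar and rarg, are given apart.

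Nuclear receptors are transcription factors that bind DNA and carry a pocket for small, fat-soluble ligands such as retinoic acid, thyroid hormone, steroids and fatty acids. Orphan receptors are those that were found before any ligand was known. Bound or unbound receptors recruit coactivators, which bring histone acetyltransferases and methyltransferases to a promoter, or corepressors, which bring histone deacetylases. In early vertebrate embryos retinoid receptors are known for patterning of the body axis, and orphan receptors of the nr5 and nr6 subfamilies for control of early embryonic and gonadal genes.

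Of 6 libraries, 3 came from PGCs, the precursors of eggs and sperm, and 3 from endoderm cells of matched stage, the tissue among which PGCs lie. The labels name no strain, allele or treatment for either group. Both cell types were isolated from stage 12-14 embryos, total RNA was depleted of ribosomal RNA, and aliquots of 1 ng were made into libraries. No label tells if libraries of 1 cell type were separate collections or aliquots of the same RNA, so the p-values cover library-to-library spread alone, which may be technical. Total counts were 14.5 to 16.9 M per library in PGCs and 9.94 to 28.3 M in endoderm. Levels are counts per M counts (CPM) after scaling for library composition, given as mean ± SD over n = 3 libraries per cell type, and are not compared between genes because gene lengths were not used. Fold changes are log2 of PGC over endoderm ± standard error (SE), and a gene model passed where the adjusted p of edgeR's quasi-likelihood test was under 0.05. The SE was worked back from the test, as the size of the log2 fold change divided by the square root of its F statistic.

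The cell type labels were checked against marker genes. All 6 germ line gene models (ddx25, dazl, nanos1, grip2 and dnd1) were higher in PGCs, where their summed level was 134900 to 136500 CPM per library, against 631 to 684 CPM in endoderm. Of 15 endoderm gene models 11 were lower and 3 higher in PGCs, with a summed level of 3247 to 3530 CPM in PGCs and 5825 to 6365 CPM in endoderm. Markers of other tissues moved with cell type as well. Of 14 mesoderm gene models 4 were higher and 0 lower in PGCs, with a summed level of 290.0 to 368 CPM in PGCs and 145 to 177 CPM in endoderm. Of 11 ectoderm and neural gene models 6 were higher and 2 lower, with a summed level of 407 to 443 CPM in PGCs and 263 to 326 CPM in endoderm. None of these 25 gene models was at 0 in a PGC library, while sox2 and single gene models of zic1, twist1 and pcdh8 were at 0 in 2 of 3 endoderm libraries. The 4 blood and endothelial gene models did not pass, at a summed 25.8 to 46.8 CPM in PGCs and 10.8 to 25.0 CPM in endoderm. The part of these other cell types in the results was not tested.

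Receptor and coregulator RNA took a smaller share of the reads in PGCs. The 55 gene models held 0.382, 0.39 and 0.386% of all counts in the PGC libraries, against 0.74, 0.773 and 0.729% in the endoderm libraries, with no overlap. Among the receptors, 5 of 43 gene models were higher in PGCs, 12 were lower and 26 did not pass. The share higher was 11.6% beside 12.6% of all 10364 gene models, and the share lower was 27.9% beside 16.8% of all gene models. Among the coregulators, 0 of 12 gene models were higher, 6 were lower and 6 did not pass, so that 50% were called beside 29.3% of all gene models in either direction. The unadjusted p of edgeR's test was under 0.05 for 7 coregulator gene models, and DESeq2 also called 0 of them higher. In the table named v7.1, which held 32 gene models of the set, 2 receptors were higher and 6 lower and 4 coregulators were lower, where 28.9% of all gene models were called, 12.8% higher and 16.1% lower. Median log2 fold changes were -0.44 for receptors and -0.49 for coregulators, against 0.07 over all gene models. Under total-count scaling that median over all gene models was 0.39, 1932 were higher and 1117 lower in place of 1301 and 1739, and receptors gave 6 higher and 10 lower and coregulators 1 higher and 5 lower. Under scaling that follows expression level, 1298 gene models were higher and 1156 lower, and receptors gave 3 higher and 11 lower and coregulators 1 higher and 5 lower. In bulk libraries, fewer cells of a type and less RNA per cell cannot be told apart.

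**Figure D1:**
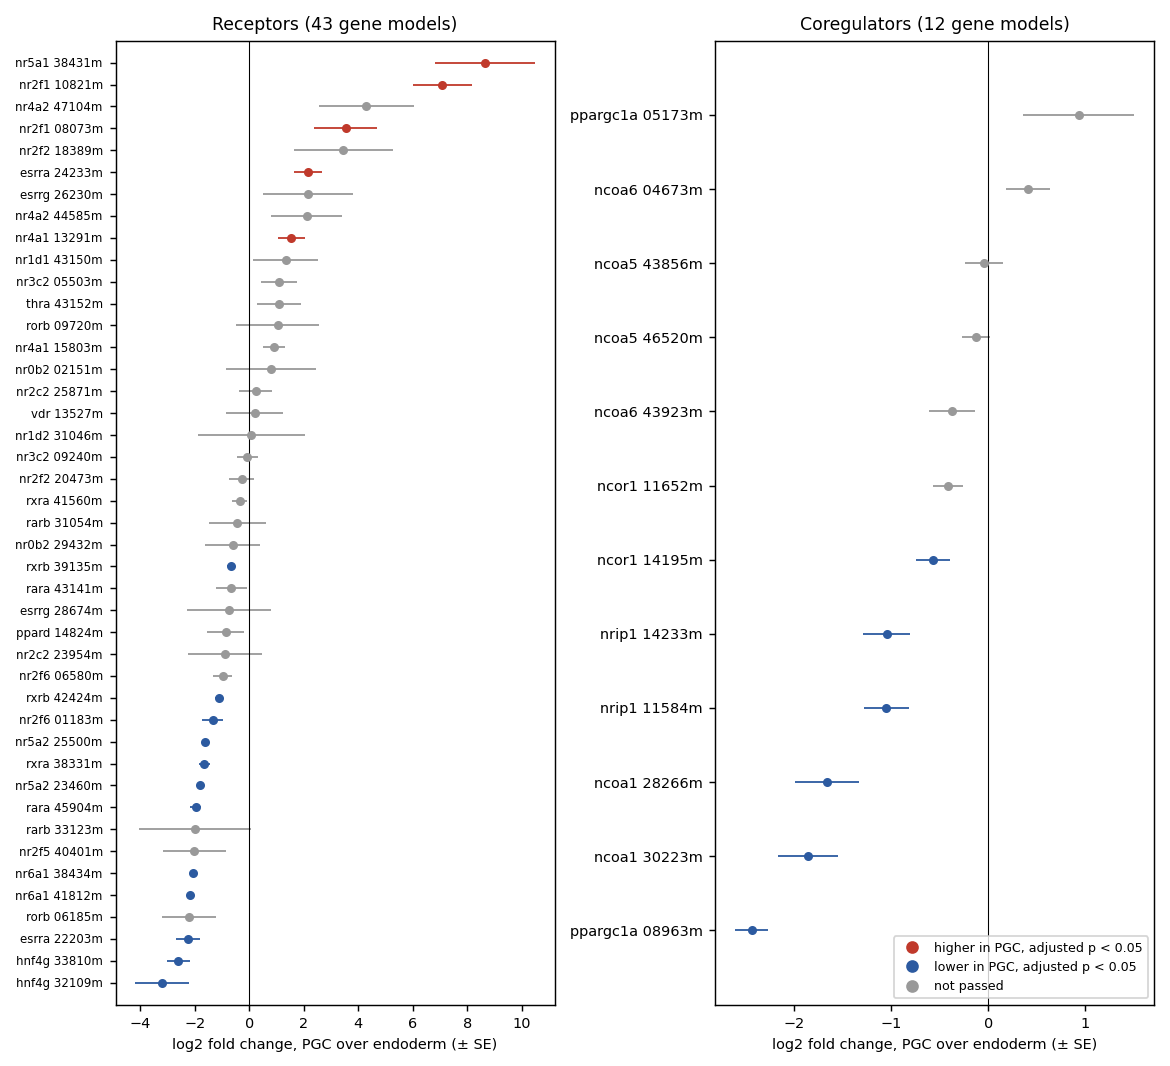
Log2 fold change of PGC over endoderm for each of the 43 receptor gene models (left) and 12 coregulator gene models (right), with bars of 1 SE, sorted by value and labelled with the symbol and the last digits of the gene model. Points right of 0 are higher in PGCs; 5 receptors passed as higher (red), 12 receptors and 6 coregulators passed as lower (blue), and grey points did not pass.

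By role, the 28 orphan receptor gene models gave 5 higher (17.9%) and 8 lower (28.6%). The 8 retinoid receptor gene models gave 0 higher and 4 lower (50%). The 2 heme receptor gene models (nr1d1 and nr1d2) and the 5 gene models of receptors for hormones and lipids (thra, vdr, nr3c2 and ppard) did not pass. Of 8 coactivator gene models 3 were lower (37.5%), and of 4 corepressor gene models 3 were lower (75%). Over all gene models, 12.6% were higher and 16.8% lower. A fitted change of at least 2-fold was found for all 5 higher receptors, 11 of the 12 lower receptors and 5 of the 6 lower coregulators. Over all gene models, 10.2% were called higher and 10.1% called lower with at least this fold. The libraries of both cell types did not overlap for 25 receptor gene models, 11 with PGCs above and 14 with PGCs below, which is 58.1% of receptors beside 48.2% of all gene models. For coregulators, 2 gene models had PGCs above and 7 had PGCs below, which is 75% of coregulators.

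Fold change moved with level in these libraries, for all genes. All gene models were ranked by mean CPM over the 6 libraries and split into 10 level groups of equal size, and the median log2 fold change was 0.61 in the lowest level group and -0.75 in the highest. Of the 23 receptor gene models in the lowest 4 level groups, 3 were higher and 0 were lower, where 7.86% of all gene models were higher and 1.3% lower. Of the 20 receptor gene models in the upper 6 level groups, 2 were higher and 12 lower, which is 60% lower, where 27.1% of all gene models were lower. Of the 11 coregulator gene models there, 0 were higher and 6 lower, which is 54.5% lower. The 27.1% pools these level groups and is not matched to the members' levels, since the highest group alone held 5 receptors and 4 coregulators. The highest level group, where 70% of all gene models were lower, held both ncor1 and both ncoa5 gene models. Of these only ncor1 Xelaev18014195m was called. Both nrip1 gene models, which were lower, stood in level group 8 from the lowest, where 43.1% of all gene models were called in either direction. A library with 0 counts was found for 11 receptor gene models (25.6%), beside 10.9% of all gene models.

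**Figure D2:**
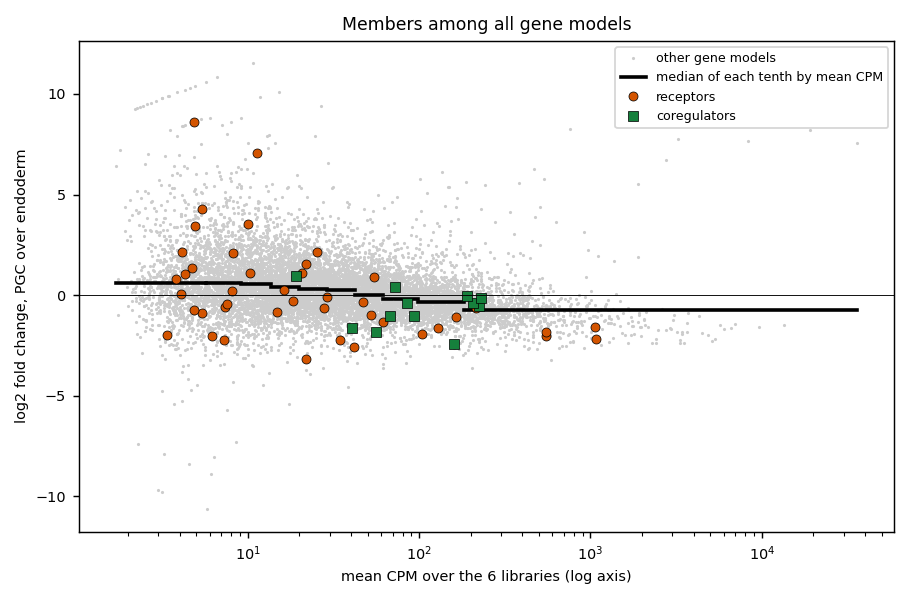
Log2 fold change of PGC over endoderm against mean CPM over the 6 libraries (log axis), with receptors as orange circles, coregulators as green squares, all other gene models in grey and black lines for the median of each of 10 level groups. The medians are 0.61 at the lowest level and -0.75 at the highest, and the 4 nr6a1 and nr5a2 gene models at the right lie below the line of their level group.

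Most receptor reads came from 2 orphan receptor genes, nr6a1 and nr5a2, and all 4 of their gene models were lower in PGCs. nr6a1 encodes germ cell nuclear factor, a repressor named for its expression in mouse germ cells, which in mouse embryos silences the pluripotency gene Pou5f1. Its gene model Xelaev18041812m had 369, 377 and 422 CPM in PGCs, against 1773, 1743 and 1744 CPM in endoderm. Its gene model Xelaev18038434m had 178, 230.0 and 232 CPM in PGCs, against 946, 850.4 and 868 CPM in endoderm. Every PGC library was below every endoderm library in both. The log2 fold changes were -2.17 ± 0.09 for Xelaev18041812m (adjusted p = 3.06e-09, edgeR) and -2.06 ± 0.13 for Xelaev18038434m (adjusted p = 1.22e-07, edgeR). Mean CPM in PGCs was 0.222 times that in endoderm for Xelaev18041812m and 0.24 times for Xelaev18038434m.

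nr5a2 encodes liver receptor homolog, an activator known from mammals for early embryonic and later liver and pancreas transcription. Gene model Xelaev18025500m had 520.3, 551 and 501 CPM in PGCs, against 1549, 1676 and 1568 CPM in endoderm. Gene model Xelaev18023460m had 270.5, 226 and 233 CPM in PGCs, against 791, 890.1 and 895 CPM in endoderm. Again no PGC library reached the lowest endoderm library. The log2 fold changes were -1.61 ± 0.09 for Xelaev18025500m (adjusted p = 3.03e-08, edgeR) and -1.82 ± 0.11 for Xelaev18023460m (adjusted p = 1.48e-07, edgeR). All 4 nr6a1 and nr5a2 gene models stood in the highest level group, whose median was -0.75. Under a library scaling that follows expression level, the 4 values shrank but still passed: -1.13 and -1.26 for nr6a1, and -0.52 for Xelaev18025500m and -0.998 for Xelaev18023460m.

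Uncorrected for gene length, both genes together took 59.2 ± 1.01% of all receptor reads in PGCs and 77.2 ± 0.525% in endoderm. nr6a1 took 26.0 ± 1.43% of receptor reads in PGCs and 40.0 ± 1.61% in endoderm. The summed level of all 43 receptor gene models was 2315 ± 85.0 CPM in PGCs and 6609 ± 115 CPM in endoderm. Without nr6a1 and nr5a2 it was 945 ± 57.5 CPM in PGCs and 1510 ± 61.3 CPM in endoderm, and the 3 PGC libraries still lay below the 3 endoderm libraries. These shares and sums are descriptions, and no test was made of them.

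**Figure D3:**
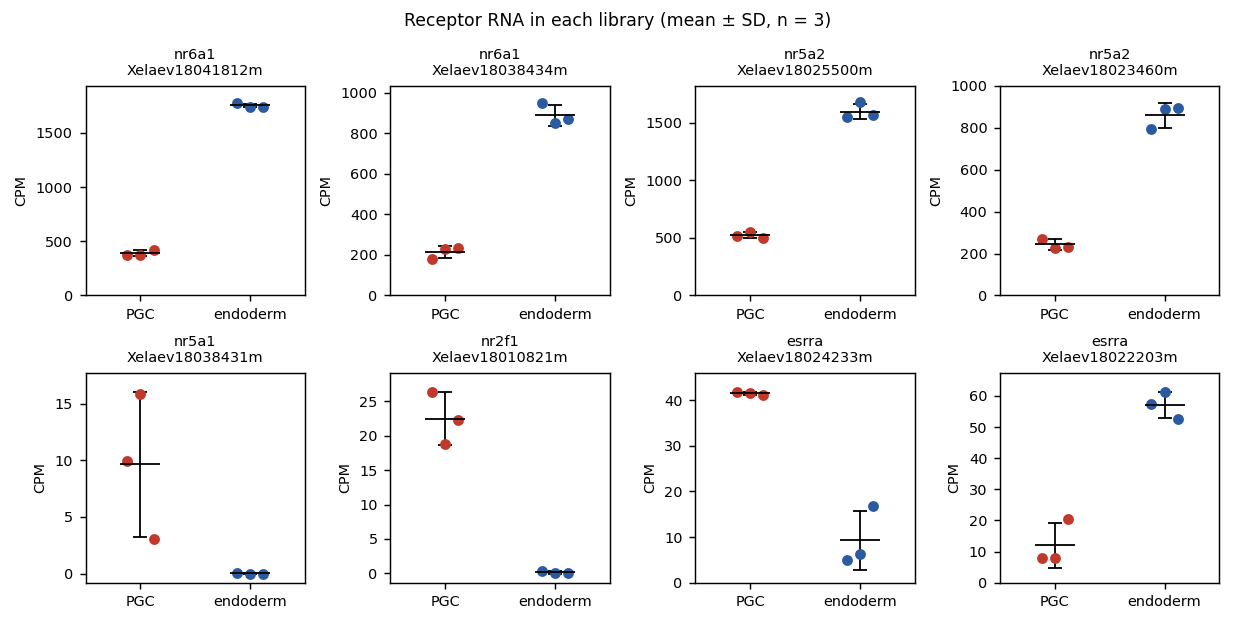
CPM of 8 receptor gene models in each of 3 PGC libraries (red, left) and 3 endoderm libraries (blue, right), each panel with its own linear axis from 0; black lines are the mean ± SD. The nr6a1 and nr5a2 gene models were lower in PGCs, nr5a1 and nr2f1 were at or near 0 in endoderm, and the esrra gene models had opposite patterns.

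nr5a1, the close relative of nr5a2, was higher in PGCs. nr5a1 encodes steroidogenic factor, known in mammals for gonad and adrenal development and for steroid enzyme genes. Its gene model Xelaev18038431m had 188, 261 and 50 counts in PGCs, against 1, 0 and 0 counts in endoderm. Each PGC library was above each endoderm library, although PGC levels themselves spread between 3.07 and 15.9 CPM. The depth-scaled ratio of the summed counts, 499 in PGCs and 1 in endoderm, was 508 (95% interval 90.8 to 20111, which covers counting error only), and the adjusted p of edgeR's quasi-likelihood test was 0.00353. The ratio rests on 1 count in endoderm replicate 1. Without that library nr5a1 was at least 86.4-fold higher in PGCs, against a floor of 3 counts over the remaining endoderm libraries, and over all settings that tested it the adjusted p was 7.22e-07 to 0.0465. In RefSeq's annotation of the Xenopus_laevis_v10.1 assembly, nr5a1.L and nr6a1.L lie 2 genes apart, and the nr5a1 and nr6a1 gene models here were called in opposite directions. Which nr6a1 gene model is the L copy is not given by the table.

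nr2f1 was higher in PGCs in both gene models. nr2f genes encode COUP transcription factors, orphan receptors that often act as repressors and are known from neural and mesodermal development. nr2f1 gene model Xelaev18010821m had 26.4, 18.7 and 22.3 CPM in PGCs, against 0.35, 0.0556 and 0 CPM in endoderm. The groups stood far apart, and its log2 fold change was 7.08 ± 1.09 (adjusted p = 0.000359, edgeR). It passed at every other setting, with values of 9.06 without endoderm replicate 1 and 5.05 under scaling that follows expression level. Its endoderm counts were only 9, 1 and 0, against 498, 308 and 363 in PGCs, so the size of the fold is uncertain. The 9.06 rests on 1 endoderm count. nr2f1 gene model Xelaev18008073m had 8.86, 13.7 and 33.1 CPM in PGCs, against 1.71, 0.0556 and 3.06 CPM in endoderm. It also did not overlap, but the PGC libraries spread widely, and its log2 fold change of 3.54 ± 1.16 (adjusted p = 0.0371, edgeR) was lost under scaling that follows expression level (2.69), without PGC replicate 2 (3.72), without PGC replicate 3 (2.82) and without endoderm replicate 1 (3.67). It was 4.36 without endoderm replicate 3, and its adjusted p over all settings lay between 0.00194 and 0.226. nr2f1 is known to be expressed in neural and mesodermal tissue. Of 14 mesoderm marker gene models 4 were higher in PGCs, 0 were lower and 10 did not pass. Of 11 ectoderm and neural marker gene models 6 were higher and 2 lower. The 6 higher ones included zic1 gene model Xelaev18029829m. It had 44.0, 51.9 and 51.0 CPM in PGCs, against 0.467, 0 and 0 CPM in endoderm. The part of such cells in the nr2f1 values was not tested.

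Of 5 gene models of the other nr2f genes, 1 was lower and the others did not pass. nr2f2 gene model Xelaev18018389m had 10.8, 3.04 and 13.2 CPM in PGCs, against 2.37, 0 and 0 CPM in endoderm. It did not pass (log2 fold change 3.45 ± 1.82, adjusted p = 0.185, edgeR). All its endoderm counts came from replicate 1. Without that library, it was at least 81.0-fold higher in PGCs, against a floor of 3 counts over the remaining endoderm libraries, and passed (adjusted p = 0.0146, edgeR), while over all settings its adjusted p was 0.0146 to 0.442. nr2f2 gene model Xelaev18020473m had 18.4, 16.5 and 14.9 CPM in PGCs, against 17.1, 19.4 and 23.9 CPM in endoderm, with overlapping libraries (adjusted p = 0.715, edgeR). nr2f6 gene model Xelaev18001183m had 14.7, 47.3 and 43.1 CPM in PGCs, against 73.9, 102 and 90.04 CPM in endoderm. Its log2 fold change was -1.34 ± 0.38 (adjusted p = 0.0183, edgeR), and it was lost under total-count scaling (-1.02, adjusted p = 0.0638, the highest over settings, where the lowest was 0.00649).

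nr4a1, an immediate early gene that responds to many stimuli, was among the 5 higher gene models. Gene model Xelaev18013291m had 39.0, 17.0 and 41.7 CPM in PGCs, against 15.2, 10.1 and 8.16 CPM in endoderm, so that the lowest PGC library was close to the highest endoderm library. Its log2 fold change was 1.54 ± 0.50 (adjusted p = 0.035, edgeR). The call was lost without PGC replicate 1 (1.39), PGC replicate 3 (1.32), endoderm replicate 2 (1.49) or endoderm replicate 3 (1.38), and under scaling that follows expression level (1.21), with adjusted p over settings between 0.0137 and 0.135. The other nr4a1 gene model, Xelaev18015803m, had 74.3, 85.6 and 55.0 CPM in PGCs, against 46.0, 53.3 and 14.4 CPM in endoderm. It did not overlap and did not pass (0.91 ± 0.41, adjusted p = 0.12, edgeR), but passed under total-count scaling (1.23), with adjusted p over settings between 0.0336 and 0.309. The relative nr4a2 did not pass in either gene model. Its gene model Xelaev18047104m had 11.1, 10.1 and 9.65 CPM in PGCs, against 1.48, 0 and 0 CPM in endoderm, and an adjusted p of 0.0848 by edgeR and 0.00708 by DESeq2. All its endoderm counts came from replicate 1. Without that library it passed (adjusted p = 0.0076, edgeR), at least 92.3-fold higher in PGCs against a floor of 3 counts. Over all settings its adjusted p was 0.00708 to 0.203. The authors' deposited table, from a likelihood ratio test, listed it with an FDR of 0.0266, and called 6 receptor gene models higher and 13 lower in PGCs, beside 15.1% and 17.9% of all gene models and 33% in either direction.

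esrra encodes estrogen-related receptor alpha, an orphan receptor known for control of mitochondrial energy genes, and its 2 gene models changed in opposite directions. Gene model Xelaev18024233m had 41.7, 41.6 and 41.2 CPM in PGCs, against 4.98, 6.29 and 16.8 CPM in endoderm. Gene model Xelaev18022203m had 7.85, 7.85 and 20.4 CPM in PGCs, against 57.3, 61.2 and 52.7 CPM in endoderm. Neither overlapped between cell types, although endoderm replicate 3 stood apart in the first and PGC replicate 3 in the second. The log2 fold changes were 2.16 ± 0.51 for Xelaev18024233m (adjusted p = 0.00652, edgeR) and -2.25 ± 0.43 for Xelaev18022203m (adjusted p = 0.00185, edgeR). Without those libraries they were 2.91 (Xelaev18024233m, without endoderm replicate 3) and -2.86 (Xelaev18022203m, without PGC replicate 3). Summed over both, esrra took 2.31 ± 0.252% of receptor reads in PGCs and 1.01 ± 0.0523% in endoderm. That receptor total was itself lower in PGCs, at 2315 CPM against 6609 CPM, so these shares do not show a higher esrra level there. Mean CPM was 41.5 for Xelaev18024233m and 12.0 for Xelaev18022203m in PGCs, against 9.35 and 57.1 in endoderm.

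hnf4g, a hepatocyte nuclear factor receptor of gut epithelium, was lower in PGCs in both gene models. Gene model Xelaev18033810m had 5.04, 15.8 and 14.5 CPM in PGCs, against 60.6, 78.8 and 76.0 CPM in endoderm (log2 fold change -2.61 ± 0.42, adjusted p = 0.000554, edgeR). Gene model Xelaev18032109m had 10.5, 2.25 and 0.123 CPM in PGCs, against 27.8, 44.0 and 47.4 CPM in endoderm. Its PGC libraries spread over a wide range below all endoderm libraries, and its log2 fold change was -3.20 ± 0.97 (adjusted p = 0.0262, edgeR). That call was lost without PGC replicate 2 (-2.90), endoderm replicate 1 (-3.35) or endoderm replicate 3 (-3.03), and without PGC replicate 1 the value was -5.06, with adjusted p over settings between 0.0015 and 0.112.

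Of the 8 retinoid receptor gene models, 4 were lower in PGCs and 4 did not pass. rar genes encode receptors for retinoic acid, and rxr genes encode the partners with which these and many other nuclear receptors bind DNA. rara gene model Xelaev18045904m had 51.5, 35.6 and 40.4 CPM in PGCs, against 158, 173 and 165 CPM in endoderm. Its log2 fold change was -1.96 ± 0.20 (adjusted p = 1.31e-05, edgeR), with no overlap. rara gene model Xelaev18043141m had 6.68, 39.2 and 18.6 CPM in PGCs, against 46.7, 25.0 and 29.9 CPM in endoderm, overlapped and did not pass (adjusted p = 0.428, edgeR). Neither rarb gene model passed, at log2 fold changes of -0.44 ± 1.03 and -1.99 ± 2.06.

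Among the partners, rxra gene model Xelaev18038331m had 59.7, 73.4 and 53.7 CPM in PGCs, against 159, 222 and 204 CPM in endoderm. Its log2 fold change was -1.65 ± 0.20 (adjusted p = 5.02e-05, edgeR), and every PGC library was below every endoderm library. rxra gene model Xelaev18041560m had 31.9, 39.4 and 52.8 CPM in PGCs, against 51.3, 55.3 and 52.5 CPM in endoderm, with overlap and no pass (-0.36 ± 0.29, adjusted p = 0.401, edgeR). rxrb gene model Xelaev18042424m had 109, 99.2 and 104 CPM in PGCs, against 202, 259 and 212 CPM in endoderm. Its log2 fold change was -1.11 ± 0.16 (adjusted p = 0.000225, edgeR). The other rxrb gene model, Xelaev18039135m, averaged 168 ± 17.8 CPM in PGCs and 265 ± 20.0 in endoderm (-0.66 ± 0.14, adjusted p = 0.00442, edgeR), and was lost under total-count scaling (-0.34) and scaling that follows expression level (-0.12), with adjusted p over settings between 0.00155 and 0.61.

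**Figure D4:**
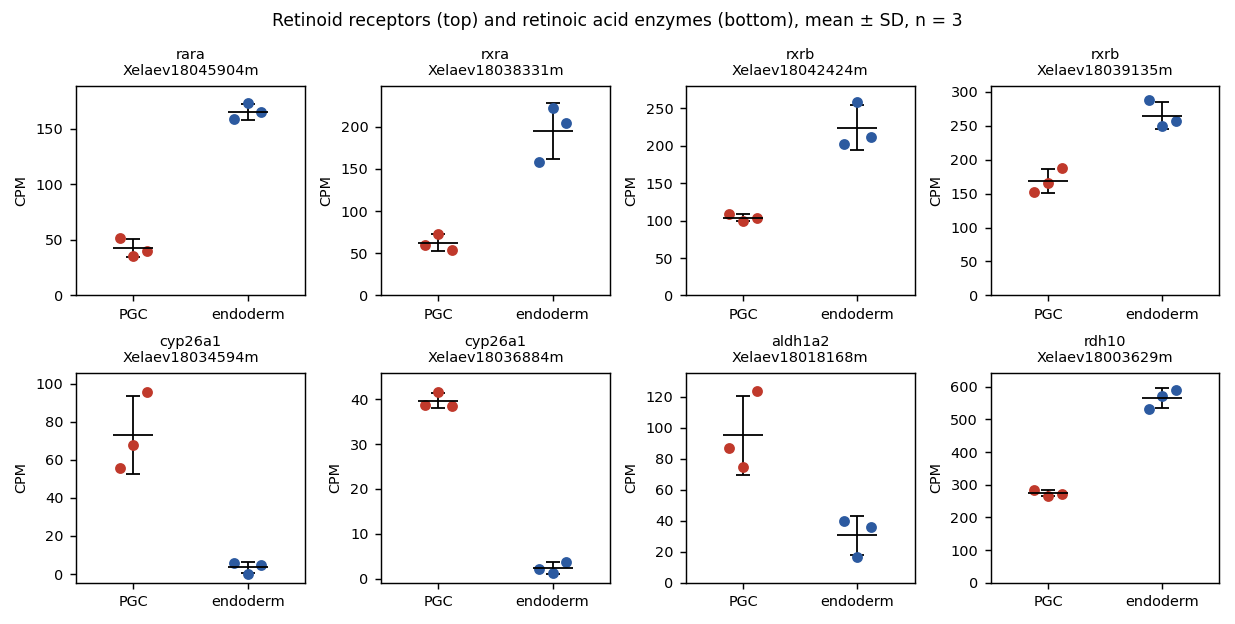
CPM of 4 retinoid receptor gene models (top row) and 4 gene models of retinoic acid enzymes (bottom row) in each of 3 PGC libraries (red, left) and 3 endoderm libraries (blue, right), with mean ± SD in black and a linear axis from 0 per panel. The receptor gene models and the rdh10 gene model shown were lower in PGCs, and both cyp26a1 gene models and the aldh1a2 gene model shown were higher.

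Retinoic acid is made and degraded by enzymes that were listed apart from the receptors. Of 13 gene models of retinoic acid metabolism, 4 were higher (30.8%, beside 12.6% of all gene models), 1 was lower (7.69%, beside 16.8%) and 8 did not pass, and their median log2 fold change was 0.50, against 0.07 over all gene models. Under total-count scaling 7 were higher, and under scaling that follows expression level 0 were lower. Among those 4, dhrs3 gene model Xelaev18035730m (0.96 ± 0.33) lost its call at 7 settings, among them scaling that follows expression level (0.97) and the removal of any 1 PGC library (1.06, 0.94 and 0.88 without replicates 1, 2 and 3) or of endoderm replicate 2 (1.04) or 3 (0.69). cyp26a1, the enzyme that degrades retinoic acid, had 55.7, 67.6 and 95.8 CPM in PGCs, against 5.87, 0.223 and 4.54 CPM in endoderm, in gene model Xelaev18034594m. In gene model Xelaev18036884m, cyp26a1 had 38.8, 41.6 and 38.5 CPM in PGCs, against 2.29, 1.22 and 3.74 CPM in endoderm. Both stood clear of endoderm, with log2 fold changes of 4.37 ± 0.77 for Xelaev18034594m (adjusted p = 0.00102, edgeR) and 4.05 ± 0.55 for Xelaev18036884m (adjusted p = 0.000138, edgeR), and the value of Xelaev18034594m was 5.12 without endoderm replicate 1. aldh1a2, which makes retinoic acid from retinal, averaged 94.96 ± 25.4 CPM in PGCs and 30.7 ± 12.6 in endoderm in gene model Xelaev18018168m (1.63 ± 0.35, adjusted p = 0.00348, edgeR). rdh10, which oxidises retinol to retinal, was the lower one in gene model Xelaev18003629m, with 274 ± 9.26 CPM in PGCs and 564 ± 30.6 in endoderm. Its log2 fold change was -1.04 ± 0.11 (adjusted p = 1.56e-05, edgeR), and it did not pass under scaling that follows expression level (-0.27). The other rdh10 gene model, Xelaev18033799m, did not pass, with the opposite sign (0.50 ± 0.26, adjusted p = 0.177, edgeR). Nor did the other gene models of aldh1a2 (Xelaev18020673m, 1.03 ± 0.43, adjusted p = 0.0963, edgeR) and dhrs3 (Xelaev18037556m, 0.31 ± 0.18, adjusted p = 0.215, edgeR). cyp26a1 and aldh1a2 are known from mesoderm and neural tissue of early embryos. Of 11 ectoderm and neural marker gene models 6 were higher in PGCs and 2 lower. Of 14 mesoderm marker gene models 4 were higher, 0 were lower and 10 did not pass. The 4 higher ones included twist1 gene model Xelaev18030956m. It had 59.5, 45.2 and 56.5 CPM in PGCs, against 0.156, 0 and 0 CPM in endoderm. The part of such cells in these values was not tested.

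The 6 coregulator gene models that passed were lower in PGCs. ppargc1a encodes a coactivator of peroxisome proliferator-activated and estrogen-related receptors that is known for mitochondrial biogenesis, and its protein's abbreviation, PGC, is unrelated to primordial germ cells. Gene model Xelaev18008963m had 50.8, 43.0 and 54.9 CPM in PGCs, against 252, 269.8 and 284 CPM in endoderm. Its log2 fold change was -2.44 ± 0.17 (adjusted p = 3.57e-07, edgeR), and it lay between -2.52 and -2.12 over all settings. Gene model Xelaev18005173m had 25.5, 22.9 and 26.9 CPM in PGCs, against 14.8, 20.3 and 4.20 CPM in endoderm. There the PGC libraries were the higher ones, without overlap, but the change did not pass (0.93 ± 0.57, adjusted p = 0.26, edgeR).

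ncoa1, a steroid receptor coactivator, was lower in both gene models. Xelaev18030223m had 15.01, 27.3 and 30.7 CPM in PGCs, against 97.7, 92.8 and 73.9 CPM in endoderm (log2 fold change -1.86 ± 0.31, adjusted p = 0.000703, edgeR). Xelaev18028266m had 17.3, 14.5 and 26.6 CPM in PGCs, against 52.4, 66.3 and 66.0 CPM in endoderm (log2 fold change -1.66 ± 0.33, adjusted p = 0.00249, edgeR). The libraries did not overlap in either. The other coactivators, ncoa5 and ncoa6, did not pass in any of their 4 gene models, whose log2 fold changes lay between -0.37 and 0.41. ncoa6 gene model Xelaev18004673m was called higher under total-count scaling (0.73), and ncoa5 gene model Xelaev18046520m under scaling that follows expression level (0.45).

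The corepressors nrip1 and ncor1 were lower in PGCs in 3 of 4 gene models. nrip1, a ligand-dependent corepressor, had 70.98, 63.9 and 46.9 CPM in PGCs, against 111, 156 and 109 CPM in endoderm, in gene model Xelaev18011584m. In gene model Xelaev18014233m, nrip1 had 44.6, 44.6 and 43.9 CPM in PGCs, against 69.4, 109 and 96.2 CPM in endoderm. Neither overlapped, and their log2 fold changes were -1.05 ± 0.23 for Xelaev18011584m (adjusted p = 0.0045, edgeR) and -1.04 ± 0.24 for Xelaev18014233m (adjusted p = 0.0062, edgeR). ncor1, the corepressor of unliganded retinoid and thyroid receptors, had 189.7, 188 and 160.5 CPM in PGCs, against 249.7, 333 and 214 CPM in endoderm, in gene model Xelaev18014195m. Its small change (-0.57 ± 0.17, adjusted p = 0.0279, edgeR) was lost under total-count scaling (-0.25), under scaling that follows expression level (-0.01), without any 1 of the PGC libraries (-0.61, -0.60 and -0.49 without replicates 1, 2 and 3) and without endoderm replicate 1 (-0.55) or 2 (-0.34), with adjusted p over settings between 0.0146 and 0.964. ncor1 gene model Xelaev18011652m had 198, 178 and 154 CPM in PGCs, against 228, 218 and 260.5 CPM in endoderm, and did not pass (-0.41 ± 0.15, adjusted p = 0.0613, edgeR).

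Xenopus laevis is an allotetraploid whose genes are often kept in a pair of copies, and 24 of the 31 symbols had 2 gene models. In RefSeq, 24 of the symbols had both an L and an S entry, but the gene models here carry no such suffix, so the copies of a symbol have no order. Whether the PGC over endoderm ratio differed between the copies was tested over all 3512 such pairs of the table, of which 9.68% differed. Among the 24 pairs of receptors and coregulators, 2 differed, esrra and ppargc1a, and 5 had an unadjusted p under 0.05. For esrra, the log2 ratio was 4.78 ± 0.80 higher in Xelaev18024233m than in Xelaev18022203m (adjusted p = 0.0072, edgeR). For ppargc1a, the difference of Xelaev18008963m minus Xelaev18005173m was -3.58 ± 0.58 (adjusted p = 0.0063, edgeR). Both differences passed at every other setting run for pairs. In 7 pairs both copies were called the same way, in 1 (esrra) they were called opposite ways, in 6 only 1 copy passed and in 10 neither passed. For rxra, where 1 copy passed, the difference between copies did not pass (1.25 ± 0.37, adjusted p = 0.0669, edgeR). Whether reads of near-identical copies were split between them is not given in the sources used here, which leaves single copies uncertain.

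**Figure D5:**
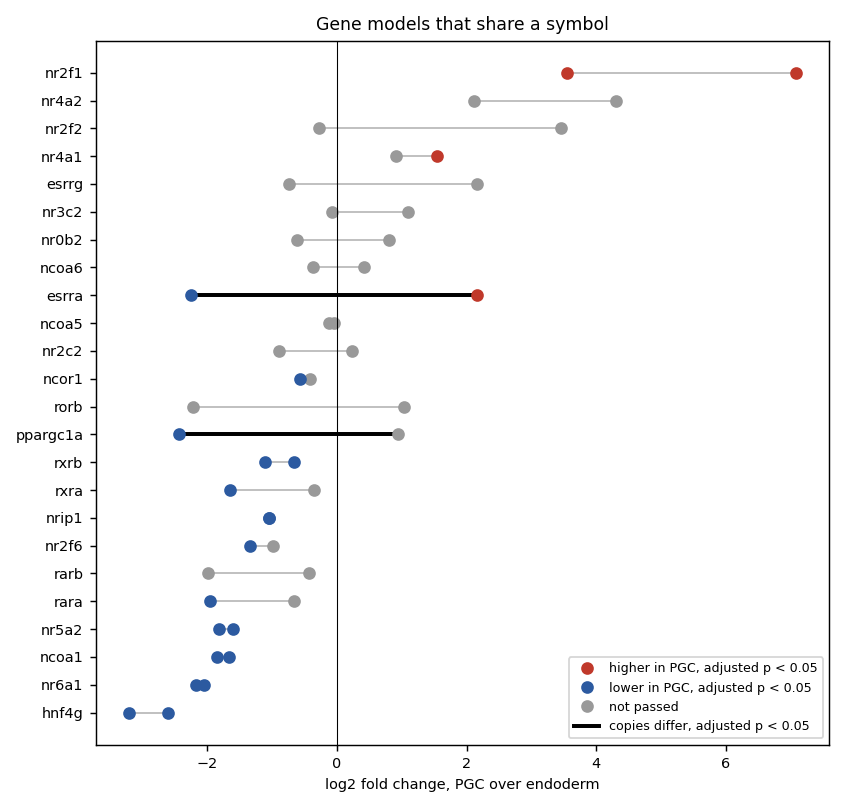
Log2 fold change of PGC over endoderm for both gene models of the 24 symbols that have 2, joined by a line and coloured by call (red higher, blue lower, grey not passed). A thick black line marks the 2 symbols whose copies differed, esrra (-2.25 and 2.16) and ppargc1a (-2.44 and 0.93).

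Other genes that act with nuclear receptors were counted on 6 further lists. Of 15 gene models of corepressor complexes, 4 were lower (26.7%, beside 16.8% of all gene models) and 11 did not pass (median log2 fold change 0.18). 3 of these 4 were above 0 under scaling that follows expression level, at 0.23 and 0.17 for hdac1 and 0.08 for tbl1xr1, and 1 of these, hdac1 gene model Xelaev18015210m, lost its call at 10 settings in all. The histone deacetylase hdac7 averaged 141 ± 6.18 CPM in PGCs and 314 ± 41.5 in endoderm in gene model Xelaev18013529m (-1.16 ± 0.14, adjusted p = 7.01e-05, edgeR), which was lower at every setting. The other hdac7 gene model, Xelaev18015994m, did not pass (0.91 ± 0.67, adjusted p = 0.354, edgeR). Of 15 gene models of coactivator partners, 5 were lower (33.3%, beside 16.8% of all gene models) and 2 higher (13.3%, beside 12.6%), with a median of -0.48. Under scaling that follows expression level, 3 of the 5 lower ones were above 0. Both ddx5 gene models then passed as higher, at 0.50 (adjusted p = 0.000695, edgeR) and 0.63 (adjusted p = 5e-05, edgeR). ddx17, at 0.16, did not pass there. The histone methyltransferase kmt2c, a subunit of a coactivator complex, was lower in both gene models, at -1.37 ± 0.17 in Xelaev18030660m (adjusted p = 7.26e-05, edgeR) and -1.07 ± 0.20 in Xelaev18032818m (adjusted p = 0.00154, edgeR). The acetyltransferase kat2b was higher in gene model Xelaev18031037m, with 18.7 ± 9.33 CPM in PGCs and 2.05 ± 1.70 in endoderm (3.19 ± 1.07, adjusted p = 0.0412, edgeR). That call was lost under scaling that follows expression level (2.48) and without PGC replicate 2 (3.15), PGC replicate 3 (2.81) or endoderm replicate 1 (3.56), with adjusted p over settings between 0.00341 and 0.171. The other kat2b gene model, Xelaev18033111m, did not pass (0.51 ± 1.26, adjusted p = 0.812, edgeR).

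Of 12 gene models of receptor chaperones, 5 were lower (41.7%, beside 16.8% of all gene models) and 1 higher (8.33%, beside 12.6%). Under scaling that follows expression level, 0 were lower and 4 higher. The Hsp90 gene hsp90ab1 was at -1.30 ± 0.09 in gene model Xelaev18028538m (adjusted p = 3.66e-07, edgeR). Its value under that scaling was -0.15 and did not pass. hspa8 was at -1.26 ± 0.06 in gene model Xelaev18037286m, and 0.22 under that scaling, where it passed as higher (adjusted p = 0.0257, edgeR). The 1 chaperone gene model called higher was Xelaev18039483m, of the Hsp90 cochaperone ahsa1. It had 54.6 ± 14.3 CPM in PGCs and 22.5 ± 5.87 in endoderm (1.27 ± 0.35, adjusted p = 0.0148, edgeR). That call was lost without PGC replicate 1 (1.06), with adjusted p over settings between 0.00401 and 0.0792. The other ahsa1 gene model, Xelaev18041358m, did not pass (0.50 ± 0.29, adjusted p = 0.236, edgeR). The 3 gene models of thyroid hormone handling did not pass, and of 9 gene models of steroid and sterol enzymes 1 was lower, cyp7b1, at -0.45 ± 0.13, which was 0.16 under scaling that follows expression level. Of 6 gene models of ar, pgr and the progesterone-binding pgrmc1 and pgrmc2, whose names fall outside the pattern, 1 passed. The androgen receptor gene ar had 34.5, 27.6 and 35.8 CPM in PGCs, against 4.70, 5.62 and 5.44 CPM in endoderm. Its groups stood clear of each other, and its log2 fold change of 2.63 ± 0.48 (adjusted p = 0.00126, edgeR) stayed between 2.22 and 2.95 over all settings.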

How the data were processed

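Raw counts for each gene model, in 2 tables named v9.1 and v7.1, were used as deposited by the authors. The tools were edgeR 3.12.0, HTSeq 0.6.0, SAMtools 1.2, Bowtie2 2.2.6 and TopHat2 2.1.0, per the submitters' processing notes, which give no roles. Not given in the sources used here were aligner settings, genome build, strand use and the handling of reads shared between copies. Per the file headers, the authors also deposited normalized signal columns (counts divided by 1 constant per library), log2 fold changes of endoderm over PGC with log2 mean abundance, linear fold ratios, a likelihood ratio score, and p-values with their FDR. Of these only the log2 and FDR columns were used, as the authors' own values.

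Members were found by symbol in v9.1, lower-cased and with a trailing .L or .S dropped. The smallest deposited total over 6 libraries was 150 counts, and filterByExpr (minimum count 10, minimum total 15) removed 0 gene models. Counts of all 10364 gene models were fitted with edgeR 4.0.16 in R 4.3.3 (TMM scaling, quasi-likelihood test, two-sided, 1 term for cell type, Benjamini-Hochberg adjustment at 0.05 over the table). A change called at least 2-fold is the fitted change. For symbols with 2 gene models, the copy by cell type term was tested in the same way with library as a block, over 3512 pairs. A bound against 0 counts uses 3 counts over the group, and intervals and bounds cover counting error only. Depth per library was 14.5 to 16.9 M counts in PGCs and 9.94 to 28.3 M in endoderm. RefSeq's annotation of the Xenopus_laevis_v10.1 assembly was used for names and neighbours, and 29 of the 31 symbols were found there.

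The members, the lists and the rule for named genes were chosen with earlier results of these data known. Values per library are given for members called with at least 2-fold, for pairs that differ, and for nr6a1, nr5a2, nr2f2, rara, rxra and ncor1; values of nr4a1 Xelaev18015803m, nr4a2, aldh1a2, dhrs3, tbl1xr1, ddx5, ddx17, zic1, twist1 and 1 hdac1 gene model were chosen after they were seen. Up to 2 called genes per list and direction are named. Other settings were DESeq2 size factors, total counts, offsets that follow expression level (limma 3.58.1), the DESeq2 1.42.0 Wald test, other filters, a replicate block, each library left out and the v7.1 table. The steps were tested on simulated counts.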

Additional observations from a re-analysis of the deposited data

How the results depend on the processing

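Of the 23 receptor and coregulator gene models called, 17 kept their call at every other setting that tested them (up to 13). Another 6 lost it at some (given in the report), and 0 reversed. The setting without a low-count filter repeats the main fit, because that filter removed 0 gene models, and is no separate check. Of the members not called, 12 changed sign at some setting. Receptors called higher in PGCs were 5, against 3 with scaling that follows expression level, 2 in the v7.1 table, which holds 32 gene models of the set, and 3 to 6 with 1 library left out (3 without PGC replicate 3). Receptors called lower were 12, against 6 in the v7.1 table. Coregulators called higher were 0, against 1 under total-count scaling and 1 under scaling that follows expression level. Over all gene models, 1301 higher and 1739 lower became 1932 and 1117 under total-count scaling, 1298 and 1156 under scaling that follows expression level, and 1044 lower at 2-fold or more; the median log2 fold change of 0.07 became 0.39 under total-count scaling and -0.05 under scaling that follows expression level. On the retinoic acid list and the 6 further lists together, 8 higher became 17 under total-count scaling and 14 under scaling that follows expression level. With 1 library left out, 5 to 7 were higher (5 without each of PGC replicates 1, 2 and 3). On the same lists, 16 lower became 4 under scaling that follows expression level. Among the 12 members that changed sign, with the cause not tested, nr2f2 Xelaev18020473m was 0.0436 under total-count scaling, ncor1 Xelaev18011652m was 0.1163 under scaling that follows expression level, and rarb Xelaev18031054m was -1.339 to 0.5336 with 1 library left out (0.5336 without endoderm replicate 3). ncoa5 Xelaev18046520m was 0.1969 under total-count scaling and 0.4504, passing, under scaling that follows expression level. ncoa5 Xelaev18043856m, at -0.04, was 0.275 and 0.4583 under these, 0.0111 with DESeq2 size factors, 0.0112 by the DESeq2 Wald test, 0.0158 with a stricter filter, and -0.1802 to 0.1901 with 1 library left out.

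Deviations of same-numbered PGC and endoderm libraries had correlations of 0.0114, -0.0021 and -0.0134. With 3 libraries per cell type, these values cannot show whether libraries of the same number were collected together, which the labels do not say. With the replicate number as a block, receptors gave 5 higher and 13 lower and coregulators 0 higher and 6 lower, the calls of nr4a1 Xelaev18013291m (1.48), dhrs3 Xelaev18035730m (1.0494), kat2b Xelaev18031037m (3.66) and hdac1 Xelaev18015210m (-0.45) were lost, and nr4a1 Xelaev18015803m passed (1.09). At this depth the 26 receptors that did not pass are not shown to be alike in both cell types, since their standard errors reached 2.06.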

Other observations

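The v7.1 table held 13 gene models of 10 receptor and coregulator symbols outside the 31 symbols above, and 3 of them were lower in PGCs, in a table where 12.8% were called higher and 16.1% lower. rarg, the third retinoic acid receptor, averaged 171 ± 28.8 CPM in PGCs and 333 ± 48.7 in endoderm (log2 fold change -0.96 ± 0.17, adjusted p = 0.000745, edgeR). hnf4a, the hepatocyte nuclear factor receptor of liver and gut, had 19.2, 13.9 and 13.1 CPM in PGCs, against 64.6, 62.3 and 63.8 CPM in endoderm, with no overlap (-2.04 ± 0.34, adjusted p = 0.000509, edgeR). The coactivator ncoa4 averaged 260 ± 23.9 CPM in PGCs and 407 ± 32.8 in endoderm (-0.65 ± 0.13, adjusted p = 0.00251, edgeR). rxrg had 51.2, 57.7 and 53.7 CPM in PGCs, against 15.02, 23.5 and 0 CPM in endoderm, and did not pass (2.06 ± 0.92, adjusted p = 0.113, edgeR), although the libraries did not overlap. These gene models were tested within the v7.1 table, which was normalized apart from v9.1, and their levels are not set beside v9.1 levels.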
